A study of Mus musculus with 6 samples.

Results

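Transcripts of 35 pan-neuronal differentiation and cytoskeleton genes were followed in green fluorescent cells sorted from the hindbrains of E10.5 mouse embryos. The set was drawn up by gene name, and each gene was read from the probe set with the highest mean log2 intensity over the 6 arrays, among probe sets that the platform annotation assigns to a single symbol. All 35 genes were found, of 18193 genes represented in the same way. The swap group was Hoxb1>A1-IRES-tauGFP (n = 3 arrays). By this label its altered Hoxb1 allele encoded Hox-A1 protein in place of Hox-B1, followed by IRES-tauGFP. The sample titles do not state zygosity. The control group, Hoxb1-IRES-tauGFP (n = 3 arrays), had the same tag behind an intact Hoxb1 gene and thus normal Hox-B1 protein. Both genotypes therefore carried the reporter tauGFP, in which tau, a protein that binds microtubules, is joined to a green fluorescent protein, and the sort took cells in which the Hoxb1 locus was or had recently been active. Hindbrains were pooled over whole litters, and the series design calls the 3 replicates of a genotype independent and biological. The tissue is labelled rhombomere 4, the segment of the hindbrain from which facial motor neurons arise.

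A newborn neuron leaves the cell cycle, switches on RNA-binding proteins and transcription factors of the neuronal state, and builds an axon. The axon rests on microtubules made of tubulin, on proteins that bind, stabilise or sever them, and on neuronal intermediate filaments, while its growing tip depends on growth cone proteins. These genes are used by nearly all neurons, so their levels in a mixed population follow both the share of cells that are neurons and the amount of RNA each neuron holds, and these cannot be told apart in bulk samples. At E10.5 the hindbrain holds dividing progenitors next to young motor neurons and interneurons.

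The arrays had median intensities of 118 to 139 after the authors' scaling, and precision throughout is limited by having 3 arrays per genotype. Replicate 1 of both genotypes stood apart from the other arrays on the first principal component (32.3% of the variance), with scores of -34.6 for swap array 1 and -48.6 for control array 1. The other 4 arrays scored between -0.49 and 30.1. Hoxb1 stood at log2 intensities of 12.54, 12.06 and 11.78 in swap arrays 1, 2 and 3, and at 12.67, 12.68 and 12.55 in control arrays 1, 2 and 3. The position of its probe set relative to the altered part of the gene is unknown here, so these values do not check the genotype. Isl1, a transcription factor of motor neurons, averaged 13.84 ± 0.17 in swap arrays and 13.71 ± 0.07 in control arrays (SD, n = 3 each). Of 15 facial motor neuron genes 14 were measured, and 11 lay at or above the median level of all probe sets. Among the 14, 7 were higher and 7 lower in swap arrays (median difference -0.04). Groups did not overlap for 2 (14.3%, against 8.85% of all genes), both lower in swap arrays. The progenitor gene Sox2 stood between 12.51 and 12.58 in swap arrays and between 12.49 and 12.69 in control arrays, so transcripts of neurons and of progenitors were both present in the sorted cells.

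None of the 35 pan-neuronal genes passed the test between genotypes. limma, fitted to all 45037 probe sets, called 0 of the 35 at an adjusted p under 0.05, and over all probe sets the called share was 0%. At an unadjusted p under 0.05 it likewise found 0 of the 35 members, against 3.63% of all genes. Among the 11168 genes at or above the median level, where 33 of the members lay, it found only 141. A count of 0 members is therefore not unusual for genes at this level. The members' differences, swap minus control, ran from -0.51 for Stmn4 to 0.25 for Map2 on the log2 scale, with a median of 0.05 against 0.0053 over all genes. Of the 35, 23 were higher and 12 lower in swap arrays, while 50.9% of all genes were higher. That lean depended on the replicate 1 arrays and on which probe sets were read. Without control array 1, 14 members were higher and 21 lower (median -0.06), and without swap array 1, 17 were higher and 18 lower (median -0.0066). Without both, a comparison chosen after seeing the data, 9 were higher and 26 lower (median -0.05). With all arrays kept and the mean of each gene's probe sets, 19 were higher and 16 lower (median 0.04).

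The intervals show what this fit could resolve, with each variance drawn toward that of all probe sets. For 29 of the 35 members the 95% interval stayed inside 2-fold in either direction, against 43.4% of all genes and 68.1% of the genes at or above the median level. The exceptions were Stmn4, Mapt, Prph, Celf3, Celf4 and Onecut1. When limma's variance prior followed the level of expression, 31 of the 35 had such an interval. Of the members, 33 lay at or above the median level of all probe sets (a log2 intensity of 6.83), and Prph and Onecut1 lay below it. Swap and control arrays did not overlap for 2 members (5.71%), against 8.85% of all genes and 8.19% of those at or above the median level. These 2 were Nefm, higher in swap arrays, and Dpysl2, lower in swap arrays. With quantile normalization Nefm was the only member whose groups did not overlap, and with each array centred on its median it was Myt1, so these separations rest on the scaling, though Nefm stayed higher and Dpysl2 lower on average. The difference between genotypes was smaller than the pooled SD within genotypes for 29 members. It was as large or larger for Stmn4, Nefm, Crmp1, Dpysl2, Myt1 and Myt1l.

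**Figure D1:**
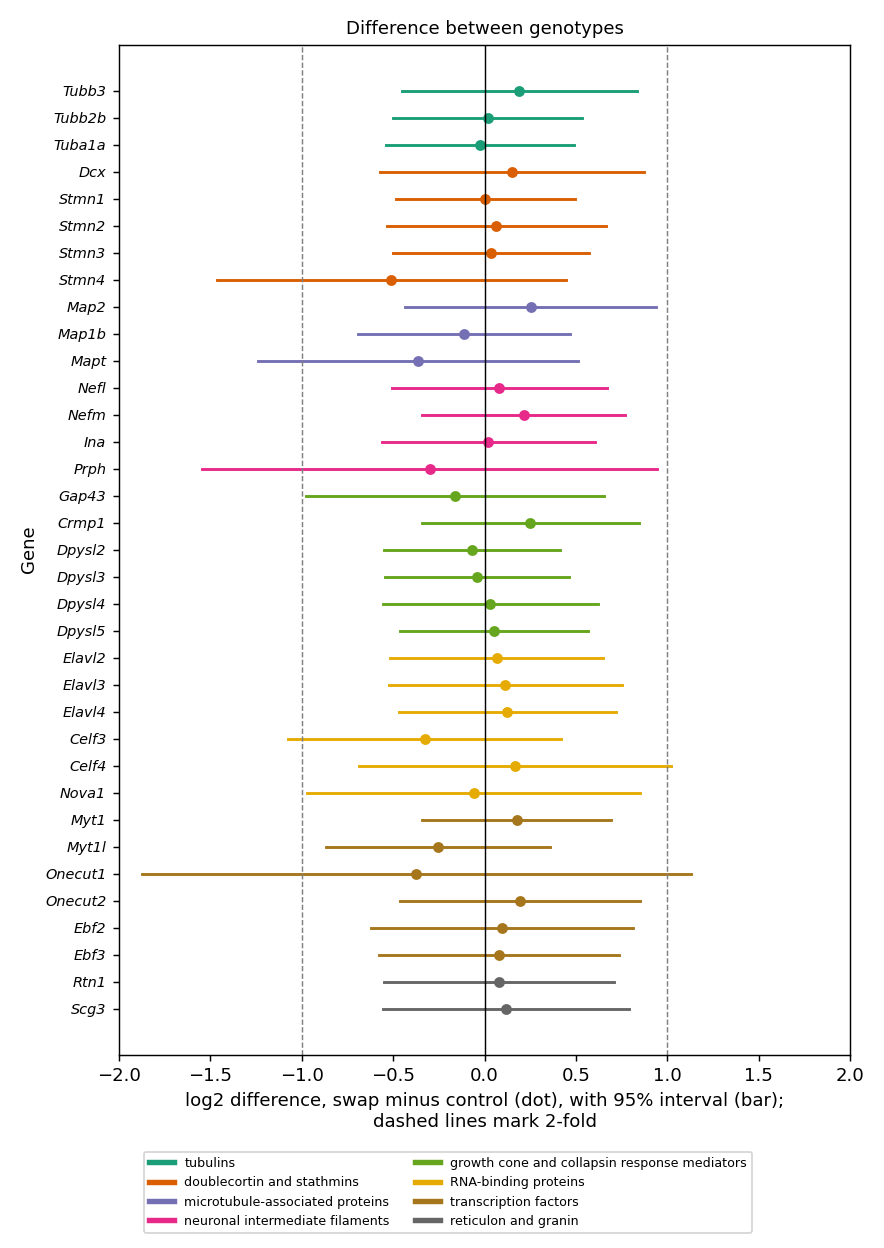
Difference in log2 intensity, swap minus control, for each of the 35 genes (dot) with its 95% interval from limma (bar), coloured by role, with 3 arrays per genotype. Every interval covers 0, and 29 of 35 lie between the dashed lines that mark 2-fold.

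Tubulins form the microtubules themselves. Tubb3, the beta-tubulin isotype used to recognise neurons, stood at 12.90, 12.24 and 12.35 in swap arrays 1, 2 and 3, and at 12.34, 12.30 and 12.28 in control arrays 1, 2 and 3. Swap array 1 was high and the other 5 arrays lay close together, so the groups overlapped. The difference of 0.19 (SE 0.26, limma's adjusted p = 1.00) was -0.01 without swap array 1. Tubb2b, a beta-tubulin abundant in migrating neurons, averaged 14.28 ± 0.13 in swap arrays and 14.27 ± 0.09 in control arrays (SD, n = 3 each). Its interval of -0.50 to 0.53 covered both directions about equally. Tuba1a, the main alpha-tubulin of young neurons, ranged from 14.72 to 14.90 in swap arrays and from 14.70 to 14.94 in control arrays. It is read by a probe set of a class that may also bind related sequences, so other alpha-tubulins may share in its value.

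Doublecortin and the stathmins act on microtubules in opposite ways. Dcx (doublecortin) binds and stabilises microtubules in migrating neurons and stood at 12.18, 11.83 and 12.22 in swap arrays, against 11.49, 12.27 and 12.02 in control arrays. Control array 1 was the lowest of the 6, and without it the difference of 0.15 (95% interval -0.57 to 0.87) was -0.07. The other probe sets of Dcx gave -0.52 (SE 0.61), 0.21 (SE 0.28) and, below the median level, -1.50 (SE 0.95). Stathmins bind free tubulin and promote the shortening of microtubules. Stmn1, which dividing progenitors express as well, stood between 14.68 and 14.78 in swap arrays and between 14.66 and 14.79 in control arrays, a difference of 0.01 (95% interval -0.49 to 0.50). For the neuronal stathmins Stmn2 and Stmn3 the differences were 0.06 (SE 0.24) and 0.03 (SE 0.22). The probe set of Stmn3 is of the class that may bind related sequences, and the one of Stmn1 is of a class shared between transcripts, but the other probe set of each gave 0.09 for both genes.

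Stmn4 had the largest difference of the 35 in size. It stood at 8.01, 7.70 and 8.79 in swap arrays 1, 2 and 3, and at 8.26, 8.71 and 9.07 in control arrays 1, 2 and 3. Swap array 3 lay inside the control range, so the groups overlapped. With a 95% interval of -1.47 to 0.44 the difference was -0.51 (SE 0.39), limma gave an adjusted p of 1.00, and the value ran from -0.82 to -0.28 as each array was left out. Stmn4 was therefore lower on average in every such fit without passing the test in any of them.

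The microtubule-associated proteins were uneven between arrays of a genotype. Map2, a protein of neuronal cell bodies and dendrites, stood at 12.42, 11.96 and 12.25 in swap arrays, against 11.57, 12.13 and 12.17 in control arrays. Control array 1 was again the lowest, and the difference of 0.25 (SE 0.28) was 0.06 without it. Map1b, one of the earliest such proteins to appear in growing axons, averaged 11.25 ± 0.09 in swap arrays and 11.36 ± 0.26 in control arrays (SD, n = 3 each), a difference of -0.11. Mapt encodes tau, the axonal protein that is also fused to the reporter. It stood at 7.58, 7.49 and 7.79 in swap arrays and at 7.33, 8.50 and 8.11 in control arrays, so the swap arrays lay within the control range. Its difference was -0.36 (95% interval -1.24 to 0.51) and -0.69 without control array 1. Its other 3 probe sets had differences of 0.49, 0.48 and 0.17, opposite in sign. Whether any of these probe sets also reads the tau part of the reporter is not known here, and both genotypes carry that reporter.

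Neuronal intermediate filaments give the axon its calibre. Nefm, the medium neurofilament subunit, stood at 13.19, 12.79 and 12.79 in swap arrays 1, 2 and 3, and at 12.67, 12.72 and 12.73 in control arrays 1, 2 and 3. Each swap array lay above each control array, for which a two-sided exact permutation test over the 6 arrays gives p = 0.1, its lowest possible value. The gap between the highest control and the lowest swap arrays was small, and swap array 1 carried most of the difference of 0.21 (SE 0.22, limma's adjusted p = 1.00), which was 0.08 without it. Nefl, the light subunit, averaged 13.59 ± 0.08 in swap arrays and 13.51 ± 0.27 in control arrays (SD, n = 3 each). Ina, alpha-internexin, the filament protein of young central neurons, had a difference of 0.02 (95% interval -0.56 to 0.60). The other probe sets of Ina gave -0.20 (SE 0.23) and -0.34 (SE 0.27). Prph, peripherin, is a filament of motor and peripheral sensory neurons. It was read below the median level at 5.98, 6.19 and 7.51 in swap arrays and 7.15, 7.13 and 6.30 in control arrays, and the interval of its difference, -1.54 to 0.94, was wide in both directions. The probe set of Prph is of the class that may also bind related sequences. Its other probe sets, also below the median level, gave -0.05, 0.03 and 0.71.

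Growth cone proteins and the collapsin response mediators had intervals within 2-fold for all 6 genes. Gap43, a membrane protein of growing axon tips, stood at 10.58, 10.85 and 11.25 in swap arrays, against 10.63, 11.50 and 11.03 in control arrays. Its groups overlapped over most of their range, with a difference of -0.16 (SE 0.33). Collapsin response mediators carry semaphorin signals to the growth cone and bind tubulin. Dpysl2, their best known member, stood at 14.39, 14.40 and 14.35 in swap arrays 1, 2 and 3, and at 14.46, 14.46 and 14.42 in control arrays 1, 2 and 3. The swap arrays all lay below the control arrays, a fold of 0.954 (exact permutation p = 0.1, two-sided, again the lowest possible). The difference of -0.07 stayed between -0.08 and -0.05 as each array was left out, but limma's SE was 0.20 (adjusted p = 1.00), because its variance is drawn toward that of all probe sets. When that prior followed the level of expression the SE was 0.09 and the adjusted p again 1.00.

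Crmp1 stood at 11.37, 10.89 and 11.01 in swap arrays and at 11.00, 10.69 and 10.83 in control arrays. Swap array 2 lay below control array 1, and the other swap arrays lay above all control arrays. The difference was 0.25 (SE 0.24, limma's adjusted p = 1.00), between 0.11 and 0.35 with each array left out. Dpysl3, Dpysl4 and Dpysl5, its relatives, had differences of -0.04, 0.03 and 0.05. Their intervals reached -0.56 at the lowest and 0.62 at the highest, both for Dpysl4. The probe set of Dpysl4 is of the class shared between transcripts, and its other probe sets gave -0.15 and -0.05.

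RNA-binding proteins steer splicing and messenger RNA stability in neurons. Elavl2, Elavl3 and Elavl4, the neuronal Hu proteins, had differences of 0.07, 0.11 and 0.12, with intervals between -0.52 and 0.75. Elavl3, which appears as neurons are born, stood at 12.82, 12.35 and 12.67 in swap arrays, against 12.24, 12.74 and 12.52 in control arrays. All 3 Hu genes had their lowest value in control array 1 and their lowest swap value in swap array 2. Celf3, a splicing regulator of the CELF family, stood at 9.68, 8.78 and 9.29 in swap arrays and at 9.58, 9.41 and 9.74 in control arrays. Swap array 2 carried most of its difference of -0.33 (95% interval -1.07 to 0.42), which was -0.09 without that array. Celf4, of the same family, had a difference of 0.17 (95% interval -0.69 to 1.02), and Nova1, a splicing factor of hindbrain and spinal neurons, one of -0.06 (SE 0.37).

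The transcription factors of the set were mixed in level. Myt1, a zinc-finger factor of cells entering differentiation, stood at 13.86, 13.66 and 13.87 in swap arrays, against 13.51, 13.66 and 13.70 in control arrays. Its difference was 0.17 (SE 0.21, limma's adjusted p = 1.00), between 0.12 and 0.24 with each array left out. Myt1l, its relative that represses non-neuronal genes, averaged 8.19 ± 0.30 in swap arrays and 8.45 ± 0.10 in control arrays (SD, n = 3 each), a difference of -0.25 (95% interval -0.87 to 0.36). Onecut1, a homeodomain factor of motor neurons and interneurons, lay below the median level and had the largest spread of the set, at 7.07, 6.39 and 5.12 in swap arrays and at 5.80, 6.84 and 7.06 in control arrays. Its difference of -0.37 (SE 0.61) was 0.16 without swap array 3, and -1.20 without both replicate 1 arrays. Onecut2, of the same family, differed by 0.19 (95% interval -0.46 to 0.85). Ebf2 and Ebf3, helix-loop-helix factors of migrating young neurons, differed by 0.10 (SE 0.29) and 0.08 (SE 0.27).

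Rtn1, a reticulon of the neuronal endoplasmic reticulum, averaged 10.11 ± 0.07 in swap arrays and 10.03 ± 0.33 in control arrays (SD, n = 3 each). Scg3, a granin of secretory granules, averaged 10.40 ± 0.26 in swap arrays and 10.28 ± 0.30 in control arrays (SD, n = 3 each). Both had their lowest value in control array 1, and without that array their differences of 0.08 and 0.12 were -0.07 and -0.06.

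**Figure D2:**
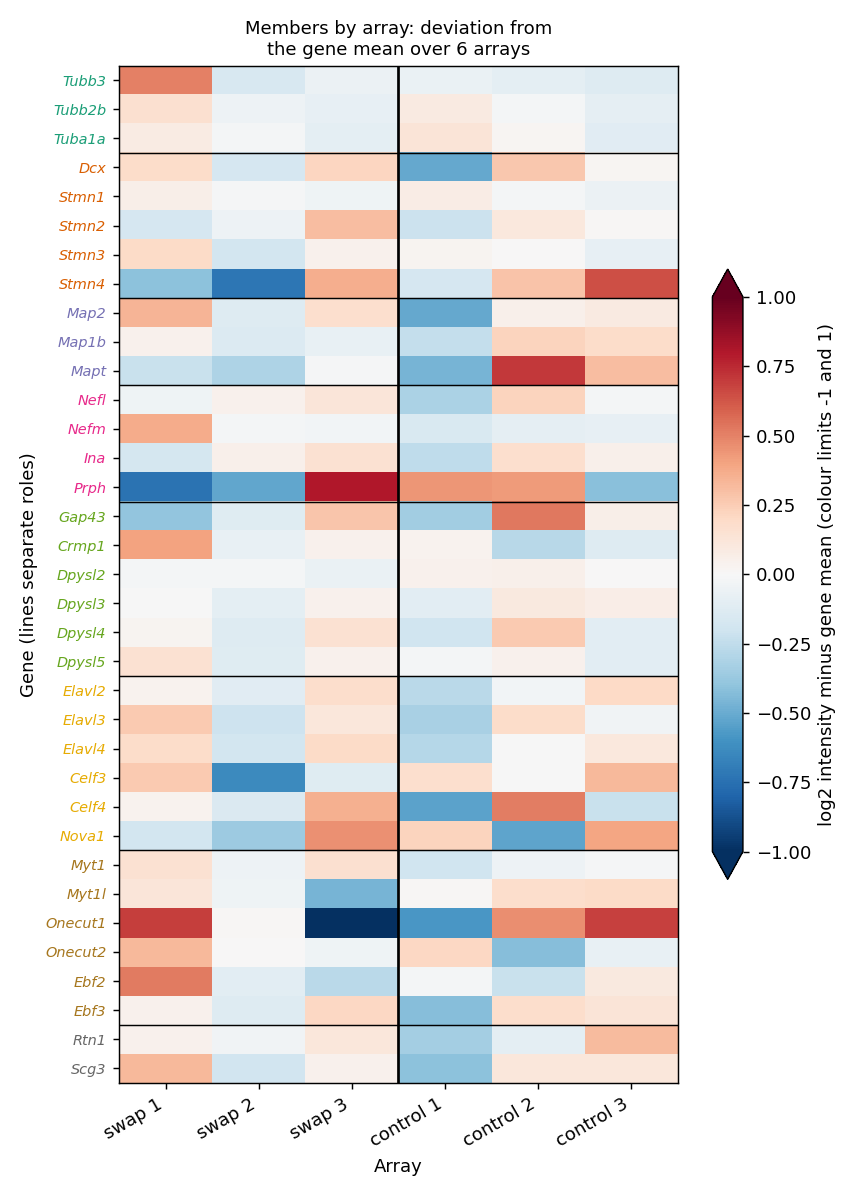
Log2 intensity of each of the 35 genes in each array, minus that gene's mean over the 6 arrays (red above, blue below, colour limits at -1 and 1), with swap arrays left of control arrays and lines between roles. Control array 1 is the lowest array for 18 of the 35 genes and swap array 1 the highest for 12.

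For most members the spread within a genotype exceeded the difference between genotypes, and the same arrays recurred at the extremes. Control array 1 was the lowest of the 6 arrays for 18 of the 35 members, against 20% of the 11168 genes at or above the median level. Swap array 1 was the highest for 12 members, against 21.6% of those genes, and swap array 2 for 0, against 13.3%. The median deviation of the members from their own means was 0.08, -0.12 and 0.05 in swap arrays 1, 2 and 3, and -0.20, 0.05 and 0.02 in control arrays 1, 2 and 3. Over all genes at or above the median level the 6 medians lay between -0.0084 and 0.03. Control array 1 was therefore low for the members and not for genes in general.

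Other lists moved with these arrays. Of 15 cell cycle genes 14 were measured, and their median deviation was 0.30, 0.14 and -0.16 in swap arrays 1, 2 and 3, and 0.29, -0.23 and -0.16 in control arrays 1, 2 and 3. Control array 1 was thus low for the members and high for cell cycle genes, while swap array 1 was high for both. For 47 neuronal genes outside the set the median deviation was -0.15 in control array 1 and -0.02 in swap array 1. The 15 progenitor genes stayed between -0.07 and 0.08 in swap arrays and between -0.08 and 0.09 in control arrays. Swap array 1 also had the largest excess of the 3′ over the 5′ control probe set, at 2.92 for Actb and 1.93 for Gapdh on the log2 scale. The other 5 arrays had 2.41 to 2.67 and 1.23 to 1.41 for these genes. The part of cell composition and RNA quality in the members' values was not tested.

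**Figure D3:**
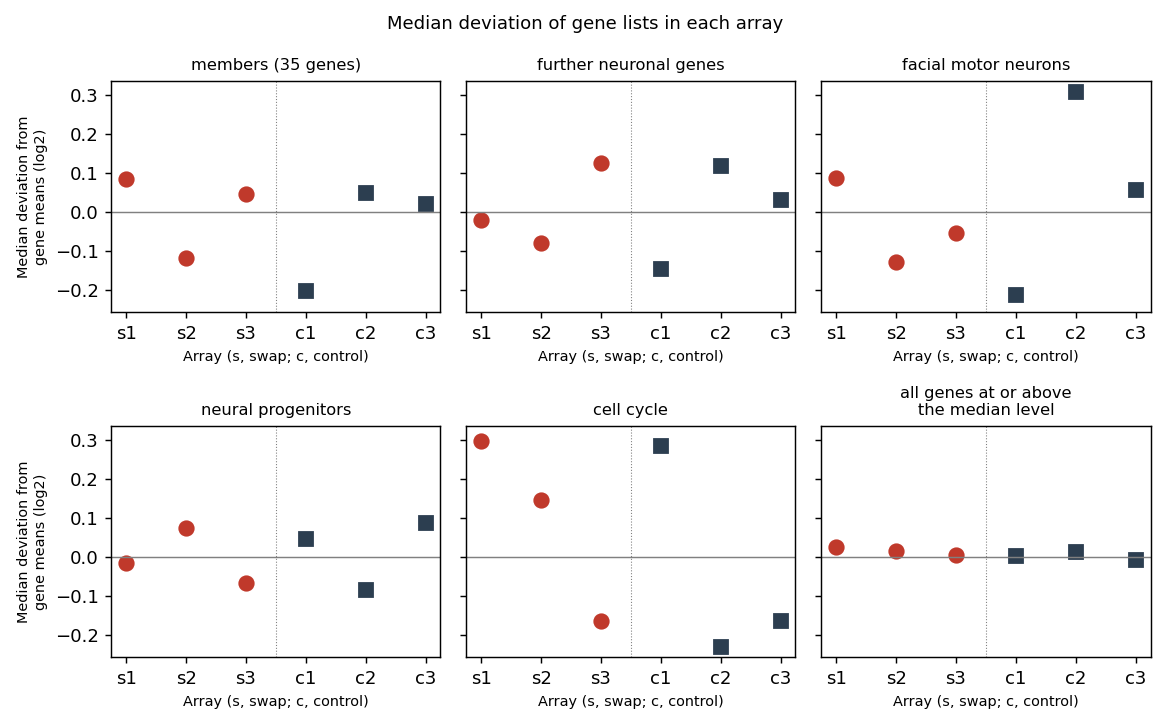
Median deviation of 6 gene lists from their gene means, in log2 units, for each swap array (circles) and each control array (squares). The members are lowest in control array 1 at -0.20, where the cell cycle genes are at 0.29, and all genes at or above the median level stay near 0 in every array.

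The members' other probe sets were read as a check on the choice of 1 probe set per gene. Of 49 such probe sets, for 25 of the members, 31 lay at or above the median level and limma called 0 (adjusted p under 0.05). The sign was opposite to that of the gene's representative for 27 of them. At an unadjusted p under 0.05 there were 2 of the 49, both opposite in sign, against 2060 of all 45037 probe sets. Probe set 1429738_at of Myt1l stood at 7.76, 7.75 and 7.49 in swap arrays, against 6.61, 7.10 and 6.42 in control arrays, with no overlap between the genotypes. Its difference was 0.95 (SE 0.27, limma's adjusted p = 0.962), where the representative gave -0.25. Probe set 1426929_at of Celf4 stood at 7.72, 7.81 and 8.32 in swap arrays, against 8.50, 8.96 and 8.97 in control arrays. Its difference was -0.86 (SE 0.28, limma's adjusted p = 1.00), where the representative gave 0.17. Where these probe sets lie in their transcripts is not known here, and whether they read other isoforms was not tested.

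**Figure D4:**
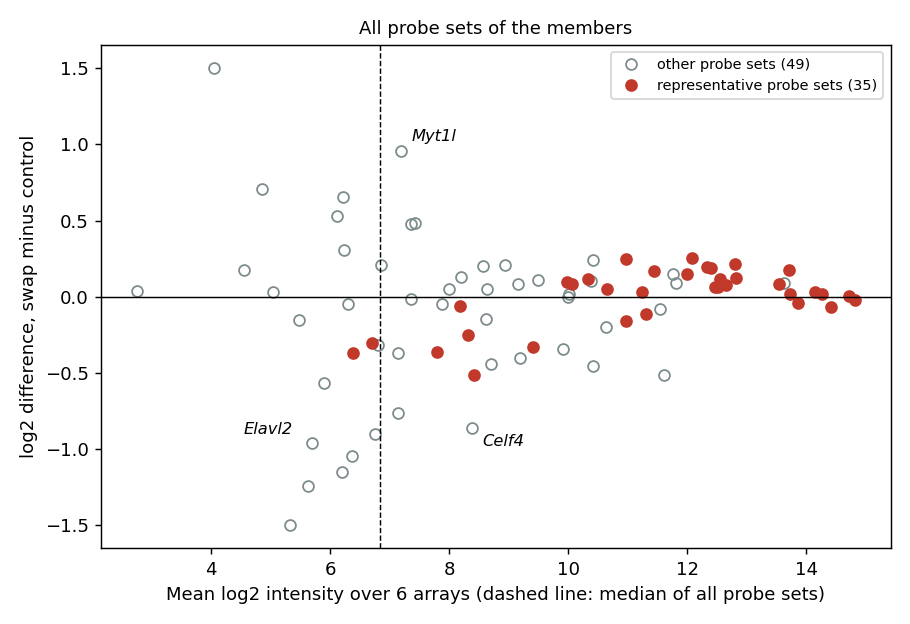
Log2 difference, swap minus control, against the mean log2 intensity of each of the 84 probe sets of the members, with filled points for the 35 representatives and open points for the other 49. The representatives stay between -0.51 and 0.25, and the differences widen below the median level (dashed line). The 3 named open points, of 49, are those whose swap and control arrays do not overlap. The share over all genes, 1 probe set each, is 8.85%.

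Because the genotypes differ in a Hox protein, the members' start regions were searched for the joint site of Hox and PBX proteins, TGATNNAT on either strand. RefSeq windows (GRCm38.p6) were at hand for 21 of the 35 members, 45 windows in all, with several starts for some genes. In the 250 bases before the start, 7 of the 45 windows (15.6%) held the motif, against 7.68% of 32851 windows of all genes. The 7 belonged to 4 of the 21 genes, namely Celf3 (3 of its 7 windows), Dcx (2 of 2), Elavl2 (1 of 6) and Myt1l (1 of 5). Windows of a gene can overlap, so these shares count a gene with several starts more than once. No share by gene was taken over all genes. For each of these 4 genes a window that held the Hox and PBX motif is shown 5′ to 3′ with the motif in capitals. They lie at chrX:143933220-143933469 (minus strand) for Dcx, chr4:91399985-91400234 (minus strand) for Elavl2, chr3:94484108-94484357 (plus strand) for Celf3 and chr12:29534352-29534601 (plus strand) for Myt1l.
Dcx: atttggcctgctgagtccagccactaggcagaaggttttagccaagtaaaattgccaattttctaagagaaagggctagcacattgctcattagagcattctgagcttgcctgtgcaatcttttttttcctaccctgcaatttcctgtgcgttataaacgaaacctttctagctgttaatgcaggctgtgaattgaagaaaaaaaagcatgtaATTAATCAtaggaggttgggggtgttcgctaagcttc
Elavl2: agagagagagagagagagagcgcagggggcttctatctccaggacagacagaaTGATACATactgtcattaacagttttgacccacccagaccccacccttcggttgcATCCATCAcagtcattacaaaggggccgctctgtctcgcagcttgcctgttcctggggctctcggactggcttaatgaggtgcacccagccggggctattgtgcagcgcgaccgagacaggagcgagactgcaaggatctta
Celf3: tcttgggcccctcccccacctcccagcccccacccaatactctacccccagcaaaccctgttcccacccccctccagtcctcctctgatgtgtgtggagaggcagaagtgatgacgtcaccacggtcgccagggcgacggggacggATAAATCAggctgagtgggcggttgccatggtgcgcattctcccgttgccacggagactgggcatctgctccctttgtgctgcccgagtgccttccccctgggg
Myt1l: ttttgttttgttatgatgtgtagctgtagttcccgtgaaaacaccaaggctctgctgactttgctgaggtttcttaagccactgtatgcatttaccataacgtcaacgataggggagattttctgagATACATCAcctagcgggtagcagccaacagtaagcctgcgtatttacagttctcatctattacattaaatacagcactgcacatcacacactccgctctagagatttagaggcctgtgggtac
A match describes letters and is not a bound site. The differences of these 4 genes, 0.15 for Dcx, 0.07 for Elavl2, -0.33 for Celf3 and -0.25 for Myt1l, did not share a direction, and none passed the test.

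Neuronal genes outside the set gave the same count of calls. Of 50 further genes of neuronal differentiation, 47 were measured and 41 of those lay at or above the median level. limma called 0 of the 47, with 0 also at an unadjusted p under 0.05. They divided into 23 higher and 24 lower in swap arrays, with a median difference of -0.0040. Groups did not overlap for 2 of them (4.26%, against the 8.85% of all genes). The smallest unadjusted p belonged to Vgf, a secreted neuronal peptide precursor at a low level, with a difference of 1.45 (SE 0.61). It was followed by Tubg2, a gamma-tubulin also at a low level, at -1.60 (SE 0.84), and by Map7, a microtubule-binding protein, at -0.67 (SE 0.42), and limma's adjusted p was 1.00 for each. Marcks and Marcksl1, membrane proteins that bind actin, had the highest means of the list and differences of -0.05 and -0.04.

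Cells other than neurons and progenitors were traced by their markers. The mean log2 level of 13 macrophage genes ran from 6.42 to 7.26 in swap arrays and from 5.13 to 8.96 in control arrays, lowest in control array 1, where C1qb, a complement gene of macrophages, stood at 8.08 against 13.41 in control array 2. Branchial mesenchyme genes (15 measured) averaged 7.82 to 8.30 in swap arrays and 7.53 to 8.56 in control arrays, again lowest in control array 1, the array in which the members were lowest. Erythroid genes (9 measured) averaged 7.27 to 8.90 in swap arrays and 8.46 to 9.30 in control arrays, with the embryonic globin Hbb-y between 13.56 and 14.32 in swap arrays and between 13.92 and 14.32 in control arrays. Genes of the cranial sensory ganglia (10 measured), whose neurons use most of the members as well, averaged 8.34 to 8.55 in swap arrays and 8.40 to 8.62 in control arrays. Their part in the members' values was not tested.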

How the data were processed

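The authors deposited linear intensities, 1 for each probe set of each array. Their tool was affy, per the submitters' processing notes, with no version or summary method stated there. A 2% trimmed mean gave 500 in each of the 6 columns, so the authors had scaled them alike. log2 was taken with no offset, since every intensity was above 0. The 64 array control probe sets were left out of the fit, and of the other 45037 probe sets 34945 had 1 symbol, 932 had several and 9160 had none. No detection calls were used.

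Differences, swap minus control, were fitted over all probe sets with limma 3.58.1 (lmFit, eBayes) in R 4.3.3, with Benjamini-Hochberg adjustment over all probe sets and a threshold of 0.05. Intervals are 95%. The script was tested on simulated data. P-values measure the spread between pooled litters. All 35 members are named. From further lists the naming rule took the members past the test or the 3 with the smallest unadjusted p and the highest means, and any other name was chosen after its values were seen. The members and lists were chosen with earlier results of these data known. Alternatives were the replicate number as a block, other scalings, an offset, a level filter, other variance priors, array weights, the mean of probe sets and leaving out arrays.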

Additional observations from a re-analysis of the deposited data

How the results depend on the processing

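limma called 0 members and 0 further neuronal genes (adjusted p under 0.05) under all 15 alternatives, of which leaving out both replicate 1 arrays was chosen after seeing the data. The smallest adjusted p of a member was 0.946. The median difference lay between -0.06 and 0.11, within the SD between arrays of 0.12. The count of members whose groups do not overlap, 2 in the main fit, was 1 with quantile normalization (Nefm) and 1 with median centring (Myt1). With the mean of all probe sets it was 3 (Ebf2, Elavl2 and Nefm). It was 3 to 9 with 1 array left out and 11 without both replicate 1 arrays. With fewer arrays such a separation is more frequent in all genes too, at 16.8% to 20.4% with 1 array left out and 31.1% (31.4% of members) without both. The count with an interval within 2-fold, 29 in the main fit, was 23 with the mean of all probe sets. It was 19 to 26 with 1 array left out and fewer arrays in the fit. Of 523 values of single members 510 moved by less than the pooled SD within genotypes, 71 changed sign, and 0 became called. The 13 that moved further included Dcx, Map1b, Mapt, Ina, Dpysl2, Elavl2, Myt1 and Ebf2 with the mean of all probe sets. The sign held in every alternative for 7 members, Stmn4, Map1b, Nefm, Crmp1, Dpysl2, Celf3 and Myt1l. Same-numbered arrays deviated together weakly (r = 0.23, 0.03 and 0.22 for replicates 1, 2 and 3). Swap arrays 1 and 3 correlated best with the same-numbered control array. Swap array 2 stood at 0.04 with control array 1 and 0.03 with control array 2. These values do not settle whether the numbers pair the samples, and the main fit did not pair them. With the replicate number as a block limma again called 0 members, and 25 had an interval within 2-fold. Prph and Onecut1, the members below the median level, had the largest SE.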
